A study of Mus musculus with 9 samples.

Results

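The fossa of the temporomandibular joint, the socket on the skull side of the jaw hinge, was compared with the whole body of mouse embryos at embryonic day 16.5. The comparison rests on 6 of the 9 arrays of the series, 3 titled fossa 1 to 3 and 3 titled whole body 1 to 3, chosen by those titles. The other 3 arrays hold the condyle, the jaw side of the joint. They entered the fit to estimate the spread, and all 9 arrays decided which probe set stands for a gene. All 9 samples carry the same stage and the same entry for laser capture of frozen tissue. Genotype, strain, sex, the number of embryos behind each array and whether any were pooled are not given in the sources used here. The series' design text speaks of biological triplicates without tying arrays to embryos, so p-values measure the spread between these arrays.

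The roof of this joint belongs to the squamosal part of the temporal bone, which forms by intramembranous ossification: mesenchymal cells turn into osteoblasts without a cartilage model, lay down collagen-rich osteoid and become osteocytes as it mineralizes. The whole embryo is a mixture of organs, with a large blood-forming liver and many rapidly dividing tissues. In bulk samples of this kind, fewer cells of a type and less RNA per cell cannot be told apart.

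Levels are log2 intensities, given for arrays 1, 2 and 3 of a group in that order. The background limit of an array is set by its brightest bacterial control probe set. Fossa 1 had the highest limit of the fossa arrays, 3.52 against 2.89 and 3.00, and the lowest share of probe sets above it, 30.3% against 43.8% and 40.7%. The 18S ribosomal RNA control read lower in fossa by 5.73 (8.59 ± 1.23 against 14.32 ± 0.09, SD, n = 3; exact permutation p = 0.1, two-sided, the smallest that 3 against 3 arrays allow). With the same p, fossa minus whole body was -0.27 for the upper quartile of the signal, -0.55 for its 95th percentile and -1.19 for the gap between the 3′ and 5′ control probe sets of Gapdh, a measure of RNA quality and labelling. For Actb that gap differed by -0.22 (exact permutation p = 0.9). The correlation between arrays over their probe sets, none of which is a replicate, ran from 0.944 to 0.972 within fossa, 0.969 to 0.978 within whole body and 0.919 to 0.938 between the groups. The tissue label was set against bone and cartilage markers, from lists chosen with earlier results of these data known. The mean over 23 bone genes was 5.92, 7.63 and 6.90 in fossa against 5.27 to 5.45 in whole body, and the mean over 25 cartilage genes was 7.68, 8.10 and 6.57 against 4.87 to 5.02. The cartilage marker Sox9 was not higher in fossa as deposited. Its fossa minus whole body difference ran from -0.61 to -0.18 when 1 array was left out, and it did not pass the threshold used below.

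Of 18193 genes, 3559 (19.6%) differed between fossa and whole body at a Benjamini-Hochberg adjusted p under 0.05 in limma, and such genes are called higher or lower in what follows. Higher in fossa were 726 genes (3.99%) and lower were 2833 (15.6%). After quantile normalization, which gives every array the same distribution of values, 1460 genes were higher (8.03%) and 1641 lower (9.02%). The median difference over all genes was -0.11 on the log2 scale as deposited and 0.00 after it, a shift of 0.12. Higher genes made up 20.4% of those called as deposited and 47.1% after quantile normalization. All but 2 of the 726 higher genes were higher in both analyses, whereas 1214 of the 2833 lower genes were not called after quantile normalization, which left 1619 (8.90%) lower in both. The 95th percentile of the signal was 8.38 to 8.46 in fossa and 8.95 to 8.99 in whole body. Quantile normalization therefore raised bright fossa values, and a rise could hardly lose its call. Of genes called only after it, 736 were higher and 22 lower. A rise called under both scalings is thus no separate support. No gene called in both changed direction. Most lists of genes below are therefore given under both scalings. A count of lower genes should be read against the shares 15.6% and 9.02%. As deposited, all 3 fossa arrays lay above all 3 whole body arrays in 2027 genes (11.1%) and below them in 5658 (31.1%). Separate groups in a single gene should be read against those 2 shares. Without fossa 3 the counts were 475 higher and 1868 lower, and without whole body 2 they were 468 and 2120.

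Outside the cartilage list, the strongest rises in fossa mixed genes of bone, of matrix and receptors of growing skeletal tissue, with several genes of general function. The 12 leading genes were taken by the size of the difference, passing over 7 genes of that list, and were Dmp1, Neat1, Susd5, Serpinh1, Farp2, Itga10, Otor, Fgfr3, Ip6k2, Cspg4, Slc35e3 and Pth1r. Itga10 and Fgfr3, described below, also act in cartilage, so the list does not hold every cartilage gene. Neat1, the noncoding RNA around which nuclear paraspeckles form, read 10.79, 7.68 and 8.14 in fossa and 3.05, 3.93 and 3.88 in whole body. All 3 fossa arrays stood well above the whole body arrays and fossa 1 was highest. It was at least 37.6-fold higher (adjusted p = 0.00468). Otor, a secreted protein related to the cartilage protein Mia and first known from the inner ear, read 8.53, 9.90 and 9.83 against 5.43, 5.77 and 6.12, 12.5-fold higher (adjusted p = 0.00534). Ip6k2, an inositol hexakisphosphate kinase, read nearly alike on the 3 fossa arrays, at 7.42, 7.40 and 7.12 against 4.34, 3.75 and 3.71, 10.4-fold higher (adjusted p = 0.000625). Susd5 was 14.9-fold higher, Farp2 12.8-fold, the proteoglycan gene Cspg4 9.61-fold and Slc35e3 at least 8.99-fold. Fossa and whole body arrays that do not overlap were a condition for choosing the 12 genes, so their separation is not a further result.

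The strongest falls beyond the liver list were genes of liver, blood, lens and heart. The 12 genes, with 11 liver genes passed over, were Fabp1, Apom, S100a8, Crygf, Bhmt, Rgn, Hemgn, Kng1, S100a9, Myl2, Slc4a1 and Cryga. Fabp1, Apom, Bhmt, Rgn and Kng1 are also made mainly in liver. S100a8 and S100a9 are neutrophil proteins, Hemgn and Slc4a1 belong to red cell precursors, Crygf and Cryga encode crystallins of the eye lens and Myl2 is a ventricular myosin light chain. Cryga was at background on all 3 fossa arrays, at 2.98, 2.52 and 2.98, against 8.83, 8.85 and 8.88, and was at least 52.6-fold lower (adjusted p = 2.06e-06). Slc4a1, the anion exchanger of red cells, still read 4.998, 8.57 and 7.96 in fossa against 13.42, 13.24 and 13.47, 73.6-fold lower (adjusted p = 0.00485). Fossa 1 held far less of it than fossa 2 and 3, and none of the 3 came near the whole body arrays. Kng1 read 5.79 on fossa 1 and 2.56 and 2.92 on fossa 2 and 3, against 10.95, 10.56 and 10.25.

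**Figure D1:**
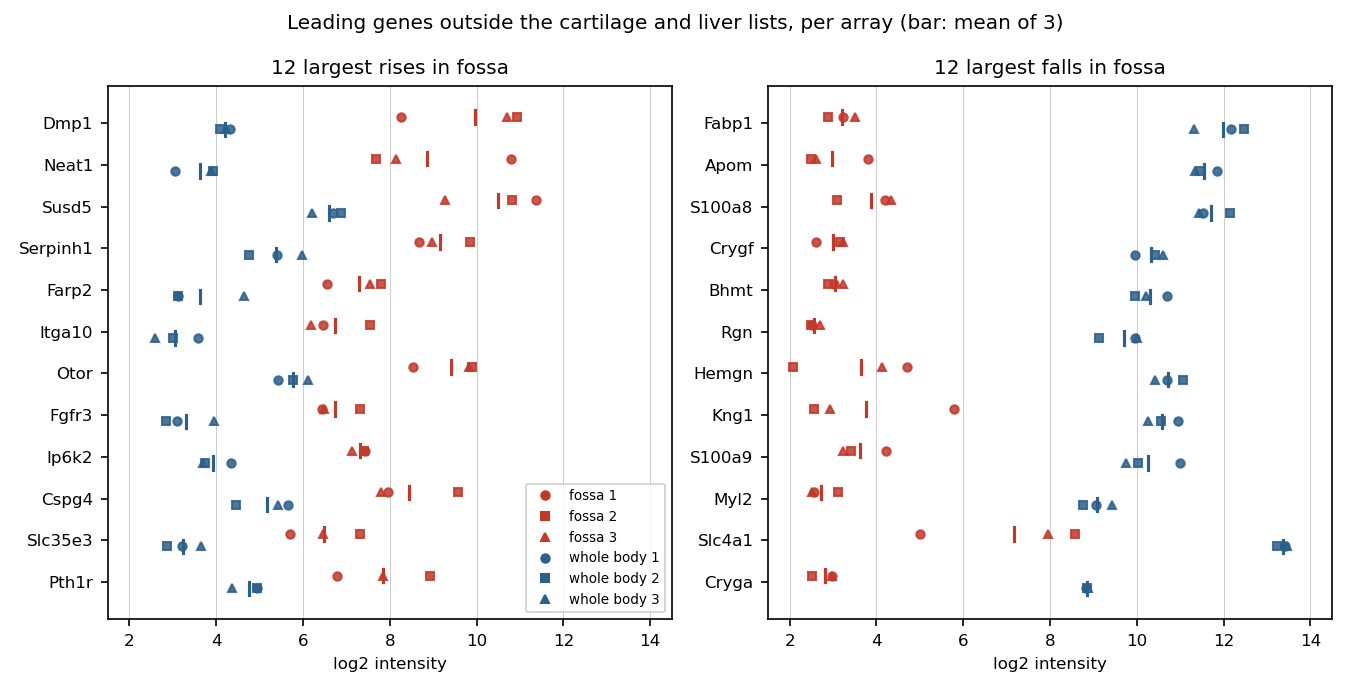
Levels of the 12 leading genes in each direction on every array (x axis, log2 intensity; red fossa, blue whole body; symbols mark the replicate, the vertical bar is the mean of 3). The red and blue points of each gene are separate because the choice of genes required it. Dmp1 is lowest on fossa 1 and Neat1 is highest there.

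Bone genes rose and none fell. Of 23 measured osteoblast and osteocyte genes, 7 were higher as deposited and 7 after quantile normalization, with a median difference of 1.13 over the list and 19 above 0. Dmp1, a matrix protein of osteocytes, read 8.25, 10.94 and 10.70 in fossa and 4.32, 4.08 and 4.23 in whole body. The groups were far apart and fossa 1 was the lowest of the fossa arrays. Col1a1, which encodes the main collagen chain of bone, read 12.46, 13.64 and 13.60 against 10.61, 10.31 and 10.19, 7.27-fold higher (difference 2.86 ± 0.58, SE; adjusted p = 0.0152). Its partner Col1a2 was 5.87-fold higher. Pth1r, the receptor for parathyroid hormone and its related protein, read 6.77, 8.93 and 7.85 against 4.95, 4.95 and 4.35, 8.58-fold higher (adjusted p = 0.00602). Mepe and Sost, made by mature osteocytes, were at least 1.84-fold and at least 1.52-fold higher, with Sost above background on 2 fossa arrays, and the regulator Dlx5 was also called with 2 fossa arrays above background.

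Other bone genes did not pass the threshold. Phex, an endopeptidase of osteocytes that acts in phosphate balance, read 5.89, 8.64 and 8.18 against 3.62, 3.23 and 3.27, a difference of 4.199 ± 1.52 (SE; adjusted p = 0.0988; 1 of 2 probe sets). Ibsp, bone sialoprotein, read 10.39, 13.46 and 12.27 against 9.52, 9.71 and 9.34 (adjusted p = 0.111). In both, every fossa array lay above every whole body array and fossa 1 lay closest to them. Sp7, a transcription factor that osteoblasts require, overlapped between the groups at 3.68, 5.91 and 4.66 against 3.24, 4.01 and 3.90 (adjusted p = 0.242). Alpl, alkaline phosphatase, read 3.62, 4.01 and 4.13 against 3.34, 3.29 and 2.94 (adjusted p = 0.261). The mean level over the whole list was lowest on fossa 1 and highest on fossa 2 among the fossa arrays. The collagenase gene Mmp13 differed by 3.16 ± 1.35 (adjusted p = 0.152). Without whole body 1, whole body 2 or whole body 3, 4 of the 23 bone genes were called. In a fit of the 6 fossa and whole body arrays alone, without the condyle, 5 were. The calls of Sost and Dlx5 ended without any 1 whole body array, and that of Sost also without fossa 2 and that of Dlx5 also without fossa 3. The call of Mepe held only without fossa 3, and that of Col1a1 ended without fossa 3.

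Genes of the osteoclast, the cell that resorbs bone, did not rise. Of 16, 0 were higher and 2 lower under both scalings. Car2, a carbonic anhydrase of osteoclasts that red cells also hold in quantity, fell from 11.10, 11.09 and 11.03 in whole body to 5.75, 5.26 and 5.58, 46.5-fold lower (adjusted p = 0.000172). Calcr, the calcitonin receptor, was at background on all fossa arrays. Ctsk, the collagen-cleaving protease of osteoclasts, overlapped between the groups at 6.21, 7.60 and 7.03 against 5.71, 5.63 and 6.80 (adjusted p = 0.588). Acp5, the acid phosphatase used to stain osteoclasts, read 6.02, 5.64 and 5.33 against 5.38, 5.33 and 4.87 (adjusted p = 0.722).

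Collagens outside cartilage were also higher. Of 14 fibrillar and microfibrillar collagen genes 5 were higher and 0 lower under both scalings, with a median difference of 1.48. The beaded-filament collagen VI accounted for 3 of the 5. Col6a1 read 9.17, 8.96 and 9.17 against 6.51, 6.39 and 7.47, 4.98-fold higher (adjusted p = 0.00659). Col6a2 read 11.01, 11.11 and 11.10 against 8.68, 8.46 and 9.20, 4.91-fold higher (adjusted p = 0.00173), and Col6a3 was 2.76-fold higher. The fossa arrays agreed closely in these genes and none overlapped with whole body. Col5a1, whose product starts collagen I fibrils, was 3.08-fold higher and Col16a1 2.80-fold. Col22a1, a collagen of tissue junctions, read 6.88, 10.23 and 8.53 against 4.57, 4.84 and 4.81 without passing (difference 3.81 ± 1.29, adjusted p = 0.0821). The count stayed at 5 or 6 whichever array was left out.

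The enzymes that fold, trim and crosslink collagen rose with it. Of 24, 7 were higher and 0 lower as deposited, and 10 were higher and 0 lower after quantile normalization, with 21 above 0 and a median difference of 1.04. Serpinh1, the collagen chaperone HSP47 of the endoplasmic reticulum, read 8.68, 9.84 and 8.97 against 5.41, 4.75 and 5.97, 13.8-fold higher (adjusted p = 0.00115). P3h3, of the prolyl 3-hydroxylase family, read 6.04, 7.76 and 6.88 against 3.59, 4.74 and 4.54, 6.10-fold higher (adjusted p = 0.0130). In both, fossa 2 was the highest array and the groups stood apart. Crtap, a partner of prolyl 3-hydroxylase in which mutations cause brittle bone disease, was 4.21-fold higher (adjusted p = 0.0392). Pcolce2, an enhancer of procollagen cleavage, was at least 5.63-fold higher, Adamts3, a procollagen N-proteinase, 3.996-fold, Loxl3, a lysyl oxidase, 3.47-fold and the lysyl hydroxylase Plod3 at least 2.19-fold. Without whole body 2, 4 of the 24 were called. The call of Crtap ended in each of the 6 leave-outs, that of Plod3 in all but the one without fossa 3, and that of Loxl3 without whole body 2. The list's mean level was 5.87, 7.31 and 6.21 in fossa against 5.23 to 5.38 in whole body.

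General secretory genes did not follow the collagen enzymes. Of 32 secretory pathway genes 1 was higher and 6 lower as deposited, and 3 were higher and 0 lower after quantile normalization, so none of the falls was called under both. Copa, a coat subunit of vesicles that return from the Golgi, read 9.31, 9.29 and 9.52 against 8.10, 7.76 and 7.83, 2.78-fold higher (adjusted p = 0.00268), and was higher under both. The signal peptidase gene Spcs2 was 2.56-fold lower as deposited (adjusted p = 0.00867) and had an adjusted p of 0.0530 after quantile normalization. Of 22 genes for chaperones and stress of the endoplasmic reticulum 2 were higher and 1 lower, and 4 and 0 after quantile normalization. Hyou1, a chaperone induced by low oxygen, was 2.51-fold higher on its brightest probe set, but 2 of its 3 probe sets did not show that direction. Pdia3, a disulfide isomerase, was at least 2.83-fold higher. Without fossa 3 or any 1 of the whole body arrays, 3 of the 32 secretory genes were lower. The call of Pdia3 held only without fossa 3, when 4 of the 22 stress genes were higher, against 1 without any other single array.

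Noncollagenous matrix genes gave few calls. Of 31 small leucine-rich proteoglycan and matricellular genes 4 were higher and 2 lower, and 5 and 1 after quantile normalization. Bgn, the proteoglycan biglycan of bone and connective tissue, read 9.93, 9.97 and 9.93 against 8.11, 7.35 and 7.72, 4.64-fold higher (adjusted p = 0.00395). The fossa arrays were nearly equal and clear of whole body. Emilin1, an elastic fibre protein, was 4.23-fold higher, elastin (Eln) at least 2.65-fold and Ltbp3, which holds latent TGF-beta in the matrix, 2.57-fold. For Emilin1 and Eln the other probe set did not show that direction. Kera, the cornea proteoglycan keratocan, was at least 7.31-fold lower and Ogn 4.30-fold lower, and the tendon gene Tnmd read 4.72, 5.19 and 3.97 against 7.08, 7.04 and 7.08, 5.41-fold lower (adjusted p = 0.0133). Of 13 tendon and ligament genes 2 were lower under both scalings, Tnmd and Kera. Ogn was not called after quantile normalization, and the calls of Kera and Ogn both ended without fossa 1, fossa 3, whole body 2 or whole body 3, and that of Ogn also without whole body 1. Of the 31, 7 were higher without fossa 1, and 0 were lower without fossa 1, fossa 3, whole body 2 or whole body 3 and 1 without whole body 1. The call of Eln ended without whole body 2. Of the 13 tendon genes 1 was lower without fossa 1, fossa 3, whole body 2 or whole body 3.

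Matrix proteases showed 2 of 23 genes higher and 1 lower, and 4 and 1 after quantile normalization. Mmp2, gelatinase A, read 9.98, 10.48 and 10.43 against 8.73, 7.47 and 7.86, 4.84-fold higher (adjusted p = 0.00708), with the groups apart. Adamts20, a protease of mesenchyme and pigment cell migration, read 7.84, 6.43 and 6.39 against 5.49, 3.57 and 5.25 (adjusted p = 0.0429), and its call held only without whole body 1. There was 1 higher protease gene without fossa 3, whole body 2 or whole body 3. Adam19 was 2.08-fold lower, with readings of 3.70, 3.83 and 3.73 against 4.84, 4.81 and 4.79. Of 21 basement membrane genes 0 were higher and 2 lower, and 0 and 1 after quantile normalization, with 1 lower when any 1 array other than whole body 2 was left out.

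Among genes for sulfated sugar chains calls went both ways. Of 36 genes of glycosaminoglycan synthesis and sulfation, 3 were higher and 5 lower, and 3 and 3 after quantile normalization. Higher were Slc26a2, the sulfate transporter mutated in diastrophic dysplasia, at 8.18, 7.66 and 7.68 against 6.07, 5.37 and 6.14 (3.95-fold, adjusted p = 0.00490), Papss2, which makes the activated sulfate donor (4.195-fold), and Chst11, a chondroitin 4-sulfotransferase (3.29-fold). Each of the 3 was higher on all 3 fossa arrays than on any whole body array. Lower were the heparan sulfate sulfotransferase gene Hs6st2, 3.82-fold, and the hyaluronan synthase Has2, at least 3.19-fold, with readings of 3.24, 3.43 and 3.19 against 4.73, 4.65 and 5.79. The calls of Papss2 and Chst11 ended in 5 of the 6 leave-outs, all but the one without fossa 3, so 1 of the 36 was higher in those 5. Without whole body 1 or whole body 2, 3 were lower. Of the 4 probe sets of Papss2 1, and of the 2 of Chst11 1, did not show that direction.

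FGF signals act through receptor tyrosine kinases and the ERK pathway, and receptors 1 to 3 mark steps of osteoblast and chondrocyte maturation. Activating mutations in these receptors cause craniosynostosis and dwarfism. Here 3 of the receptor genes rose and the feedback genes Dusp6 and Spry2 were lower as deposited. Of 24 FGF pathway genes 3 were higher and 5 lower, and 4 and 4 after quantile normalization. Fgfr3, which restrains cartilage growth, read 6.43, 7.32 and 6.49 in fossa and 3.10, 2.84 and 3.96 in whole body, at least 10.3-fold higher (adjusted p = 0.001). Fgfr2 read 8.02, 8.24 and 7.99 against 3.65, 5.66 and 6.19, 7.53-fold higher (adjusted p = 0.0190), and Fgfr1 read 5.71, 6.33 and 5.52 against 3.15, 4.03 and 3.89, 4.48-fold higher (adjusted p = 0.00431). No whole body array reached a fossa array in any of the 3 receptors, although Fgfr2 varied widely among the whole body arrays. Fgfr4 did not pass, at 3.18, 2.86 and 3.02 against 3.28, 3.23 and 3.38 (adjusted p = 0.255).

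Dusp6, the phosphatase that switches off ERK and is itself induced by it, read 3.77, 4.53 and 3.47 against 6.72, 6.16 and 6.76, 6.13-fold lower (difference -2.62 ± 0.30, SE; adjusted p = 0.00161). Spry2, a Sprouty feedback inhibitor, read 3.03, 4.34 and 3.56 against 5.36, 5.49 and 4.66, at least 2.57-fold lower (adjusted p = 0.0248), with an adjusted p of 0.0528 after quantile normalization. Both were below whole body on every fossa array, least so on fossa 2. The ERK-induced factor Etv4 and the ligand Fgf18, a growth signal of skull bone, were called lower but lay at background on all 6 arrays, so no fold is given, and the same holds for the fifth lower gene, Fgf23, the phosphate hormone of osteocytes. The decoy receptor gene Fgfrl1 read 8.60, 8.87 and 7.96 against 7.70, 5.39 and 7.28 and passed only after quantile normalization (adjusted p = 0.0841 and 0.0461). For Fgfr1 and Fgfr2, 2 of 3 probe sets showed the direction. For Spry2 1 of 2 did. The calls of Fgfr2 and Fgf23 ended without fossa 2 or fossa 3, that of Spry2 held only without fossa 2 or whole body 3, and 3 genes were lower without fossa 3.

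**Figure D2:**
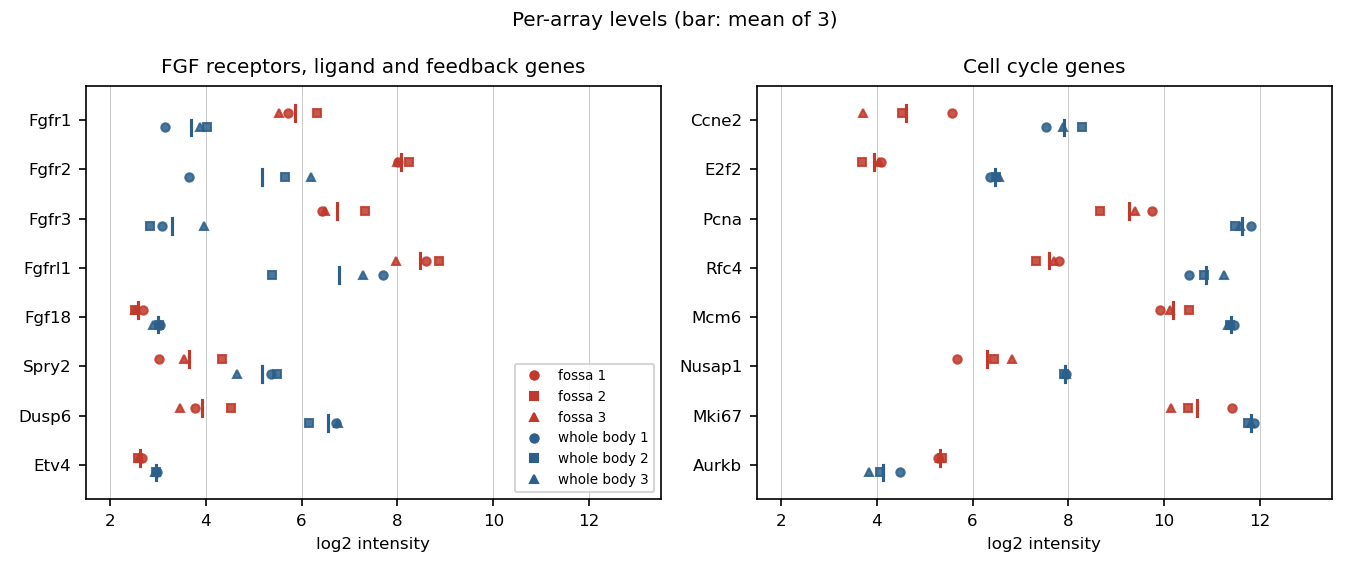
Levels per array of FGF pathway genes (left) and of cell cycle genes (right) (x axis, log2 intensity; red fossa, blue whole body; symbols mark the replicate, the vertical bar is the mean of 3). Fgfr1, Fgfr2, Fgfr3 and Fgfrl1 lie to the right of whole body and Dusp6 and Spry2 to the left. Fgfr4, which did not pass, is not shown. Of the 8 cell cycle genes shown, only Aurkb lies to the right.

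Hedgehog signalling, which in skeletal tissue runs from Ihh through Ptch1 and Smo to the Gli factors, showed 3 of 23 genes higher and 1 lower, and 6 and 0 after quantile normalization. Gli2, the main activator, read 7.90, 7.25 and 7.36 against 5.76, 6.18 and 6.23, 2.72-fold higher (adjusted p = 0.00746). Evc, a cilium protein mutated in Ellis-van Creveld chondrodysplasia, was at least 1.61-fold higher and Scube1 at least 1.20-fold. Ptch1, receptor and target gene, read 10.80, 10.87 and 9.94 against 9.51, 9.92 and 8.84 (adjusted p = 0.0851, and 0.0278 after quantile normalization). Its groups were separate, with fossa 3 just above whole body 2. Gli1, the target most often used as a readout, read 5.64, 4.42 and 2.41 against 2.95, 2.51 and 2.64, high on fossa 1 and 2 but at background on fossa 3 (adjusted p = 0.212). The ligand gene Ihh was at background on all 6 arrays. The call of Scube1 ended without whole body 2, and 1 of the 2 probe sets of Evc did not show its direction. The 1 lower gene, Foxf2, was not called after quantile normalization or without fossa 2, fossa 3, whole body 1 or whole body 2, and 2 genes were lower without fossa 1.

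Wnt signals drive osteoblast formation and are held in check by secreted inhibitors. Of 55 Wnt pathway genes 4 were higher and 8 lower, and 7 and 4 after quantile normalization. Of the 4 higher genes 3 encode inhibitors: Sfrp2 at 8.35, 9.31 and 9.70 against 7.07, 7.21 and 7.84 (3.36-fold, adjusted p = 0.0310), Sfrp4, near background, and Sost. The fourth was the coreceptor Lrp6, 2.63-fold higher. Another inhibitor gene, Dkk2, was at background in fossa and at least 1.26-fold lower. Further inhibitors stood above whole body on every array without passing: Dkk1 at 6.18, 7.19 and 7.15 against 4.46, 4.44 and 4.32 (adjusted p = 0.0747) and Wif1 at 5.27, 7.98 and 6.46 against 4.26, 4.89 and 4.48 (adjusted p = 0.0802). Lower were the agonists Rspo1, at background in fossa and at least 1.62-fold lower, and Rspo2, at least 1.98-fold lower, and the scaffold gene Axin1, at 2.93, 3.33 and 3.24 against 4.43, 4.45 and 4.36. These counts moved with single arrays. They were 1 higher and 5 lower without fossa 2, 2 and 3 without fossa 3, 0 and 6 without whole body 1, and 1 and 3 without whole body 2, and 5 were lower without fossa 1. The call of Sfrp2 ended without any of fossa 2, fossa 3, whole body 1 or whole body 2, that of Lrp6 without fossa 2 or whole body 1, and that of Rspo2 without fossa 3, whole body 1 or whole body 2, while Sfrp4 was called only without fossa 1. The other probe set of Lrp6 did not show its direction.

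BMP and TGF-beta genes showed 2 of 43 higher and 5 lower, and 5 and 3 after quantile normalization, shares close to those of all genes. Gdf10, a TGF-beta family ligand, read 4.84, 6.89 and 6.34 against 3.75, 3.65 and 3.63, 5.08-fold higher (adjusted p = 0.0212). Smad3, a TGF-beta transducer, was 2.08-fold higher on 1 of its 3 probe sets, and its call ended in each of the 6 leave-outs. The BMP receptor Bmpr1a read 7.56, 7.96 and 7.93 against 9.02, 9.42 and 9.34, 2.72-fold lower (adjusted p = 0.00469), and the shared transducer Smad4 was 2.08-fold lower. The call of Gdf10 held only without fossa 1 or fossa 2. Lower genes numbered 3 without fossa 1 or whole body 1 and 2 without fossa 2, fossa 3 or whole body 2, and higher genes numbered 0 without fossa 3 or any 1 whole body array and 1 without fossa 2.

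In the insulin-like growth factor axis 2 of 19 genes were higher and 2 lower, and 3 and 2 after quantile normalization. The 2 lower genes encode binding proteins. Igfbp1, made in liver, was at background on every fossa array at 2.32, 2.30 and 2.30 against 6.83, 8.76 and 8.05, at least 26.7-fold lower (adjusted p = 0.000364). Igfbp2 read 3.80, 4.04 and 3.80 against 4.66, 5.59 and 5.40, 2.54-fold lower (adjusted p = 0.0112). The 2 higher genes were the insulin receptor substrates Irs1, at 8.44, 8.75 and 8.67 against 7.77, 7.70 and 8.22 (1.65-fold), and Irs2, at background throughout. The ligand gene Igf1 differed by -2.36 ± 0.80 without passing (adjusted p = 0.0821), lowest on fossa 1. The higher count was 4 without fossa 1 and 1 without fossa 2, fossa 3, whole body 1 or whole body 2, and without each of these last 4 the call of Irs1 ended.

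Of 17 retinoic acid genes 0 were higher and 4 lower, and 1 and 3 after quantile normalization, with 2 lower in both, with a median difference of -0.49 that was -0.32 after it. The plasma retinol carrier Rbp4, made chiefly in liver, was at least 36.2-fold lower. Rdh10, which starts the conversion of retinol to retinoic acid in embryos, read 4.59, 5.11 and 5.23 against 6.04, 6.68 and 6.81, 2.90-fold lower (adjusted p = 0.00979) and was called under both scalings. The next enzyme, Aldh1a2, read 3.15, 3.29 and 3.14 against 4.45, 5.50 and 5.18 (adjusted p = 0.0569, and 0.0498 after quantile normalization). The receptor Rarg, a regulator of cartilage, was at least 1.80-fold lower (adjusted p = 0.0313, and 0.0988 after quantile normalization), and its call held only without whole body 3. The list had 2 lower genes without fossa 1, fossa 3 or whole body 1.

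Guidance molecules, which steer axons and also bone cells, showed 5 of 43 genes higher and 3 lower, and 6 and 1 after quantile normalization. Unc5c, a netrin receptor, read 5.24, 6.50 and 6.27 against 3.56, 3.14 and 3.64, 5.91-fold higher (adjusted p = 0.00702). Plxnb2, a semaphorin receptor, read 5.28, 5.64 and 6.08 against 4.62, 3.55 and 4.01, 3.06-fold higher (adjusted p = 0.0106). Both groups of arrays were apart in each gene. Sema3g was at least 1.31-fold higher, the other 2 higher genes were Ephb3 and Efna1, and the lower genes were Sema3c, Epha7 and Plxna4. There were 3 higher genes without fossa 1, fossa 2, fossa 3, whole body 1 or whole body 2, and 1 lower gene without fossa 3 or any 1 whole body array. The calls of Efna1 and Epha7 ended in all 6 leave-outs, and those of Ephb3 and Sema3c in 5. Epha7 and Sema3c were not called after quantile normalization either, and for Unc5c, Efna1 and Plxna4 1 of 2 probe sets did not show the direction. Notch genes, which hold back bone cell maturation, had 1 of 22 higher as deposited and 2 after quantile normalization. The 1 higher as deposited was the fringe gene Rfng, at 7.90, 7.61 and 7.81 against 6.66, 6.30 and 6.72 (2.32-fold, adjusted p = 0.00883, in 1 of 2 probe sets).

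Adhesion genes of mesenchyme showed 3 of 31 higher and 3 lower under both scalings. Itga10, the integrin subunit by which cartilage cells bind collagen, read 6.46, 7.55 and 6.18 against 3.59, 2.99 and 2.60, at least 10.4-fold higher (adjusted p = 0.00708). Itgb5 read 7.95, 8.81 and 8.38 against 6.67, 6.54 and 6.75, 3.30-fold higher (adjusted p = 0.00402), and Gpc4, a cell surface heparan sulfate proteoglycan, was 3.44-fold higher. Each stood clear of whole body on all 3 fossa arrays. Cdh6 was at least 3.92-fold lower. The call of Gpc4 ended without fossa 2, fossa 3, whole body 1 or whole body 2, and that of Cdh6 without fossa 1, fossa 2 or whole body 2. For Gpc4 and Cdh6 the other probe set did not show the direction. Among cytoskeleton genes of mesenchyme 1 of 36 was higher and 8 lower, and 4 and 4 after quantile normalization. The higher gene was Lmna, encoding lamin A of stiff tissues, at 10.34, 10.24 and 10.59 against 8.38, 8.46 and 8.01 (4.30-fold, adjusted p = 0.0106, in 3 of 5 probe sets). Lower were filamin C (Flnc), 3.65-fold, and thymosin (Tmsb4x), 3.53-fold. Without fossa 2, fossa 3, whole body 2 or whole body 3, 5 were lower.

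Patterning factors of the head gave a mixed result. Of 45 cranial mesenchyme and first arch factors 4 were higher and 10 lower, and 4 and 7 after quantile normalization. Dlx1, a homeobox gene of the upper and lower jaw primordia, read 6.25, 7.10 and 6.79 against 5.15, 4.15 and 5.23, 3.66-fold higher (adjusted p = 0.00956). Twist1, whose loss of a copy causes craniosynostosis, read 5.54, 5.47 and 5.91 against 4.90, 4.25 and 4.42, 2.17-fold higher (adjusted p = 0.0283). Fossa and whole body arrays were separate in both. The other 2 were Dlx5 and Meox1, the latter at background throughout. Lower were Meox2, 4.07-fold, Hand2, a factor of the lower jaw and heart, at least 3.12-fold, Tcf12, a Twist1 partner, 2.79-fold, and Lhx8, a jaw and tooth mesenchyme factor, at 4.18, 3.99 and 4.03 against 5.95, 5.16 and 5.73, 2.92-fold (adjusted p = 0.00766). Dlx2, Foxd1 and Meis1 were also lower. Prrx1 overlapped at 8.01, 8.81 and 8.12 against 7.91, 8.46 and 8.22 (adjusted p = 0.873), and Pax9 read 2.98, 2.97 and 2.96 against 3.67, 4.17 and 2.90 (adjusted p = 0.205).

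Single arrays moved these counts. There were 5 lower without fossa 1 or fossa 2, 6 without fossa 3 and 4 without whole body 2, and the higher count was 2 without fossa 1, fossa 3 or whole body 1 and 1 without whole body 2 or whole body 3. The call of Twist1 held only without whole body 1, as did that of Hand2. The calls of Meox1 and Dlx5 ended in 5 and 4 of the 6 leave-outs, and that of Meox2 without fossa 1, fossa 3, whole body 2 or whole body 3. The call of Foxd1 ended without fossa 1, fossa 2, whole body 2 or whole body 3. For Tcf12 3 of 5 probe sets showed the direction, and for Hand2 2 of 3.

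Hox genes pattern the trunk and limbs and are absent from the mesenchyme of the jaws and skull front. Of 33, 7 were lower and 2 higher, and 5 and 2 after quantile normalization. At background on all 6 arrays were 12 of the 33. Hoxc8 was at background in fossa at 2.68, 2.63 and 2.60 against 4.90, 5.50 and 6.33, at least 5.42-fold lower (adjusted p = 0.00136). Hoxa9 was at background on fossa 2 and 3, at 2.74 and 2.76, but read 5.17 on fossa 1, against 7.53, 8.24 and 6.48, at least 13.2-fold lower (adjusted p = 0.0110). Hoxa5, a gene of neck and upper trunk, read 6.93, 5.42 and 4.92 against 7.89, 7.91 and 7.27 and was called as deposited only (adjusted p = 0.0313, and 0.101 after quantile normalization). So 2 trunk Hox genes stood higher on fossa 1 than on the other fossa arrays. Of the 2 higher genes, Hoxa7 was above background on 2 fossa arrays, at least 1.16-fold higher, and Hoxb9 was at background on all 6. Without fossa 2 or fossa 3, 4 were lower, and without fossa 3 1 was higher. The call of Hoxa5 ended without fossa 2, fossa 3, whole body 1 or whole body 2.

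G1 and DNA replication genes were called lower in fossa more often than all genes under both scalings, and mitosis genes only as deposited. Cells commit to divide when G1 cyclins with their kinases release E2F factors from the Rb protein, and E2F then switches on the genes that copy DNA. Of 24 G1 cyclin, kinase and inhibitor genes 0 were higher and 11 lower, and 1 and 8 after quantile normalization. Of 44 DNA replication genes 1 was higher and 22 lower, and 1 and 12 after quantile normalization. The median differences were -0.89 and -0.82, and -0.60 and -0.49 after quantile normalization, against 0.00 for all genes.

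Ccne2, encoding a cyclin E, read 5.57, 4.53 and 3.71 in fossa and 7.54, 8.29 and 7.90 in whole body, 9.89-fold lower (adjusted p = 0.00392). The Rb gene itself (Rb1) was 3.56-fold lower, and the activator E2f2 read 4.09, 3.69 and 4.05 against 6.36, 6.49 and 6.55, 5.74-fold lower (adjusted p = 0.000652). Inhibitors of the kinases fell too: Cdkn1b read 3.98, 4.51 and 4.46 against 5.41, 5.42 and 5.35, 2.11-fold lower. Fossa and whole body arrays did not overlap in any of these genes. Rfc4, a loader of the replication clamp, read 7.81, 7.32 and 7.69 against 10.52, 10.83 and 11.24, 9.57-fold lower (adjusted p = 0.000365). The clamp gene Pcna read 9.75, 8.67 and 9.40 against 11.81, 11.48 and 11.58, 5.09-fold lower (adjusted p = 0.00243). Rpa3, which coats single-stranded DNA, was 4.90-fold lower, the polymerase gene Pola1 3.15-fold and the helicase subunit Mcm6 2.30-fold. These calls held under both scalings. The exception to the direction was Pole, a polymerase subunit, at 4.45, 4.53 and 4.49 against 3.19, 2.78 and 2.69, at least 2.42-fold higher (adjusted p = 0.000869).

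The promoters of 2 of these lower genes are shown because many replication genes are known E2F targets. Among genes lower under both scalings, those with more matches were preferred, then those with the larger fall. Promoters on a single chromosome were left out of this choice beforehand. The sequences are the 250 bases before the RefSeq start on GRCm38.p6, read 5′ to 3′ on the gene's strand. Capitals mark matches on either strand to TTTGGCGC, TTTCCCGC, TTTGCCGC or TTTCGCGC, which are forms of the E2F site.
Mcm6, chr1:128359706-128359955, minus strand: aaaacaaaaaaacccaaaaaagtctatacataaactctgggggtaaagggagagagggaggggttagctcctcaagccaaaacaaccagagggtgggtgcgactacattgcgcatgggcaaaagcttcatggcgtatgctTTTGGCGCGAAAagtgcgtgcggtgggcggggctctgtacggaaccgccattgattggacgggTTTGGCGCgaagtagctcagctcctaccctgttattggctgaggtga
Pola1, chrX:93632156-93632405, minus strand: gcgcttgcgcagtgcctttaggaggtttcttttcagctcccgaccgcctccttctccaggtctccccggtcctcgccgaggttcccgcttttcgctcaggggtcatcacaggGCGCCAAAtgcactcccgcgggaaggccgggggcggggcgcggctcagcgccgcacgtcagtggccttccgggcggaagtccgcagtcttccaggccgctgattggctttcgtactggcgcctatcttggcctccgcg
Mcm6 holds 3 matches, of which 2 overlap within the first run of capitals, and Pola1 holds 1, on the opposite strand. The 4 forms also overlap each other in sequence. Among 37 replication genes with a promoter from RefSeq, 9 (24.3%) held a match, against 455 of the 14452 measured genes with one (3.15%). Among the 19 of these replication genes that were lower, 4 held a match. Among all genes with a promoter, 80 of 2302 lower genes (3.48%) and 28 of 595 higher genes (4.71%) did. A match of letters is a description of the sequence and was not tied to binding in this tissue.

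Mitosis genes were called lower beyond the share of all genes only as deposited. Of 48, 2 were higher and 12 lower (25%, against 15.6% of all genes), but 3 and 3 after quantile normalization. The last 2 counts were below the shares of all genes, 8.03% higher and 9.02% lower. The median difference was -0.63 as deposited and -0.16 after quantile normalization. Nusap1, a spindle protein, read 5.68, 6.44 and 6.82 against 7.95, 7.90 and 7.96, 3.08-fold lower (adjusted p = 0.00861). The condensin gene Smc2 was 3.06-fold lower and the cytokinesis gene Anln 2.88-fold, and these 3 were called under both scalings. Higher were the kinase Aurkb, at 5.28, 5.37 and 5.31 against 4.49, 4.08 and 3.84 (2.27-fold, adjusted p = 0.00601), and the condensin gene Ncapd2 (2.37-fold). Mki67, the gene of the proliferation antigen Ki-67, read 11.41, 10.49 and 10.15 against 11.87, 11.74 and 11.81 and did not pass (adjusted p = 0.0581, and 0.253 after quantile normalization). Fossa 1 was nearest to whole body in Mki67 and in the mean over the mitosis genes, 7.13 against 6.61 and 6.80 on fossa 2 and 3 and 7.31 to 7.50 in whole body. Without fossa 3, 7 were lower. The call of Ncapd2 ended without fossa 1 or fossa 3, which left 1 higher.

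Mitochondrial genes were lower in fossa in large numbers as deposited. The respiratory chain burns the electrons taken from food with oxygen to make ATP, and its subunits are encoded mostly in the nucleus. Of 72 such subunits 0 were higher and 42 lower as deposited, and 2 were higher and 17 lower after quantile normalization. Of 69 genes of the mitochondrial ribosome and import machinery 0 were higher and 36 lower, and 1 and 18 after quantile normalization. Median differences were -0.75 and -0.72, and -0.27 and -0.28 after quantile normalization. All 17 of the respiratory chain genes lower after quantile normalization were also lower as deposited, and the median stayed below 0. The upper range of the signal was itself lower in fossa as deposited, and its part in these falls was not tested.

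Ndufa4 read 5.96, 6.24 and 6.59 in fossa and 8.35, 8.69 and 8.35 in whole body, 4.60-fold lower (adjusted p = 0.000571). Ndufs4, a complex I subunit, read 7.22, 7.10 and 7.05 against 8.61, 9.16 and 8.85, 3.37-fold lower (adjusted p = 0.000625). Atp5c1, the central shaft of the ATP synthase, read 11.57, 11.57 and 11.97 against 13.35, 13.44 and 13.35, 3.19-fold lower (adjusted p = 0.000215). All 3 kept their call after quantile normalization and no array of 1 group reached the other. Uqcrh of complex III and Sdhb of complex II were 3.15-fold and 3.12-fold lower. Of the import genes, Tomm70a, an outer membrane receptor, read 8.79, 8.35 and 8.12 against 10.22, 10.37 and 10.65, 3.98-fold lower (adjusted p = 0.000709), and of the ribosome genes Mrps14 was 3.68-fold lower. Of 32 genes of the tricarboxylic acid cycle and fatty acid oxidation 1 was higher and 11 lower, and 3 and 2 after quantile normalization. The 2 that stayed lower were Dld and Fh1, 3.37-fold and 2.73-fold lower. The last list had 7 lower genes without fossa 2 or whole body 2 and 6 without fossa 3, and its higher call held only without whole body 1.

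The promoter of Atp5c1 is shown as an example of a site for NRF1, the nuclear respiratory factor, a known regulator of respiratory chain genes. It was picked from the respiratory chain list by the same preference for matches and then for the fall, with the same chromosome left out. The sequence is the 250 bases before the start, on GRCm38.p6 and the gene's strand, with the match in capitals.
Atp5c1, chr2:10080433-10080682, minus strand: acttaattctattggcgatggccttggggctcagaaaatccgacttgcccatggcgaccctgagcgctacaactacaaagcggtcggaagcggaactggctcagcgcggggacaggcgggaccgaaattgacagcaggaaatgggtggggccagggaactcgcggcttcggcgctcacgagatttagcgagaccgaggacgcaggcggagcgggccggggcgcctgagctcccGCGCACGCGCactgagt
The motif searched on both strands was GCGC, any base, then TGCGC. It occurred in 11 of 61 respiratory chain promoters (18.0%) and 8 of 61 for the mitochondrial ribosome and import genes (13.1%), against 1011 of 14452 (6.996%) in all. Of the 37 lower respiratory chain genes with a promoter 5 held it. Of all genes with a promoter, 201 of 2302 lower genes (8.73%) and 50 of 595 higher genes (8.40%) did. Binding in this tissue was not tested.

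**Figure D3:**
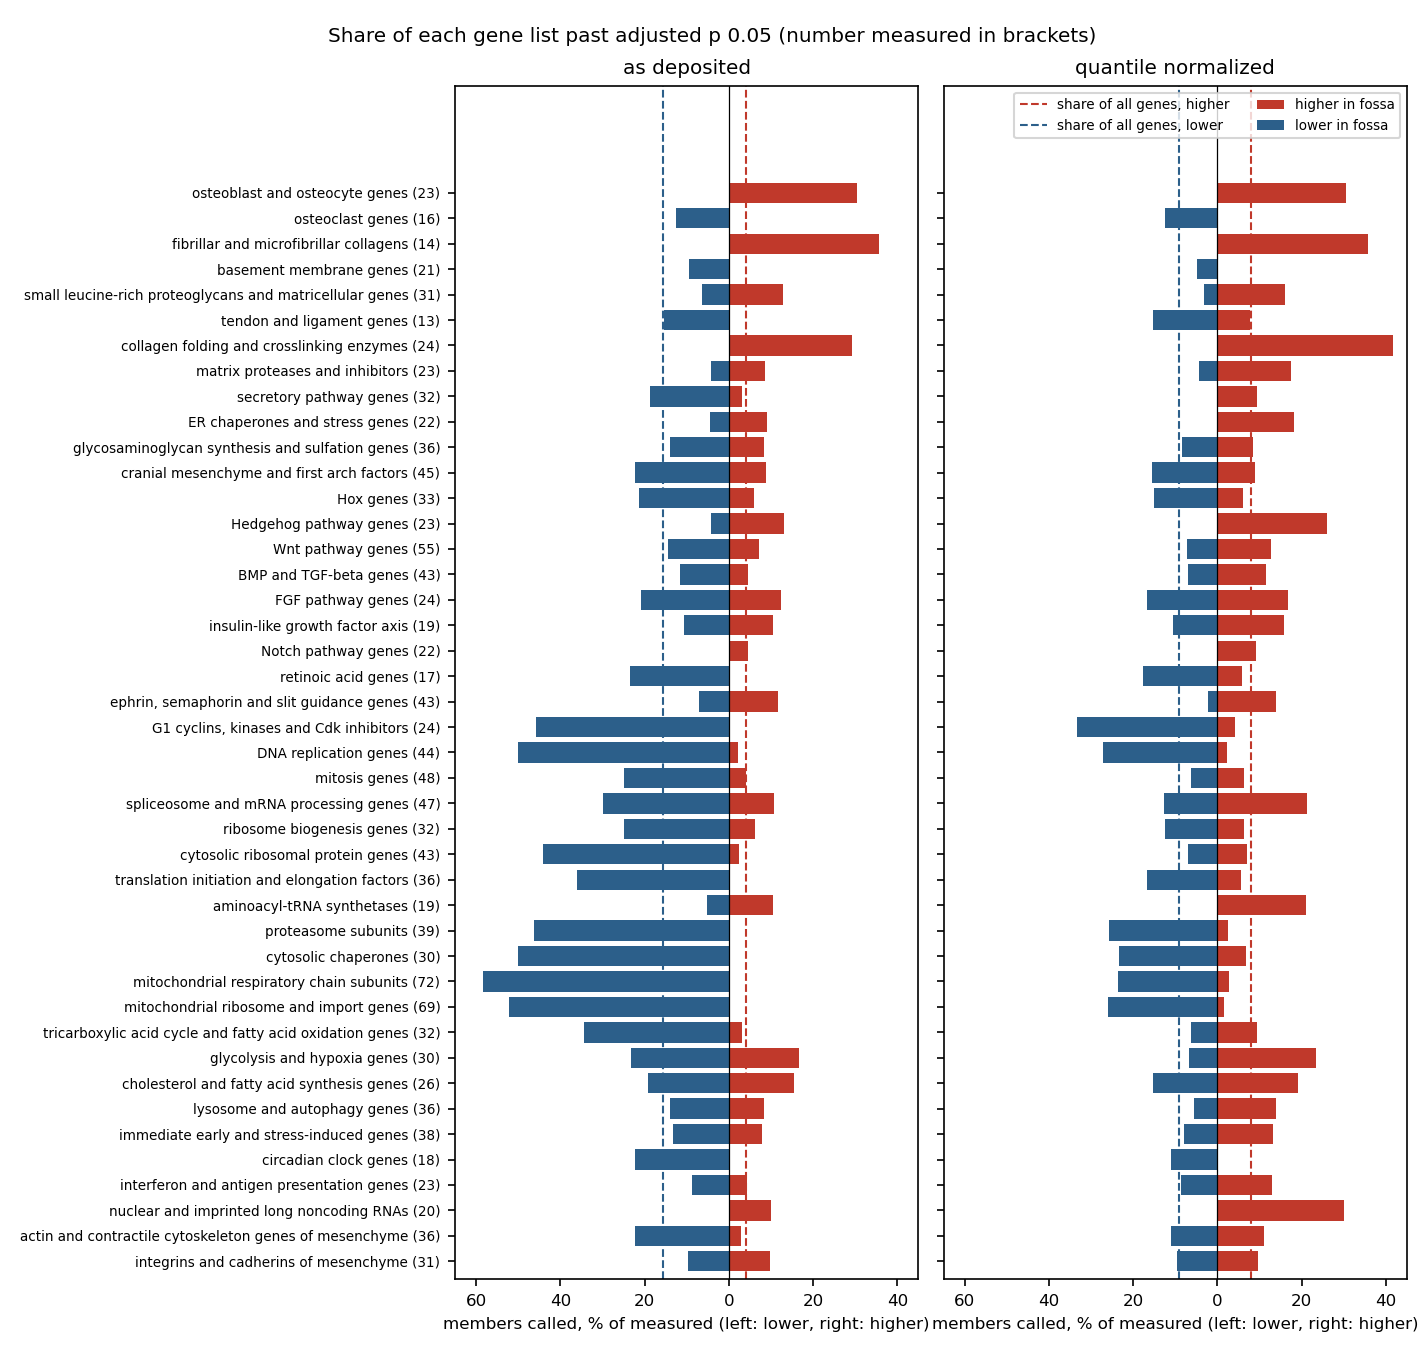
Share of the measured genes of each list shown that were higher (red, to the right) or lower (blue, to the left) in fossa, in percent, as deposited (left panel) and quantile normalized (right panel). The cartilage list and the marker lists of other cell types are not shown. Dashed lines give the shares of all genes, 3.99% and 15.6% as deposited and 8.03% and 9.02% after quantile normalization; most blue bars shorten after quantile normalization and the bars of bone, collagen and collagen enzyme genes stay on the right.

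Protein production and turnover genes followed the same pattern, with calls that shrank under quantile normalization. Of 39 proteasome subunits 0 were higher and 18 lower, and 1 and 10 after it. Of 30 cytosolic chaperones 0 were higher and 15 lower, and 2 and 7 after it. Of 36 translation factors 0 were higher and 13 lower, and 2 and 6 after it. Eif3m, a subunit of initiation factor 3, read 6.95, 6.50 and 6.48 against 9.27, 9.29 and 9.28, 6.20-fold lower (adjusted p = 7.55e-05). Psmd5, an assembly factor of the proteasome, read 6.96, 6.62 and 7.17 against 8.70, 8.76 and 8.67, 3.46-fold lower (adjusted p = 0.000386). Pfdn4, a prefoldin subunit that hands actin and tubulin to the chaperonin, was 4.98-fold lower and Hsp90aa1 2.61-fold. Each lay below whole body on all 3 fossa arrays, and each was called under both scalings. The translation factor count was 8 without fossa 3.

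Ribosomal protein genes showed how far scaling mattered. Of 43, 1 was higher and 19 lower as deposited, and 3 and 3 after quantile normalization, with a median difference of -0.36 that became -0.01. Rpl22 read 14.27, 14.20 and 14.08 against 15.14, 15.20 and 14.99, 1.90-fold lower (adjusted p = 0.000857), and kept its call. Rps14 at 13.16, 14.01 and 14.09 against 14.79, 14.67 and 14.65 did not (adjusted p = 0.0297, and 0.0876 after quantile normalization). Rpl12 went the other way on its 1 probe set, at 5.54, 5.52 and 4.65 against 2.63, 2.59 and 2.57, at least 4.15-fold higher (adjusted p = 0.00069). The whole body arrays were at background for that probe set. The lower count was 12 without whole body 1 and 9 without whole body 2, and the higher count was 2 without whole body 1 or whole body 3. The call of Rps14 ended without any 1 whole body array. Of 32 ribosome biogenesis genes 2 were higher and 8 lower, and 2 and 4 after quantile normalization, led by Nip7, at 7.47, 7.30 and 6.95 against 9.50, 9.10 and 9.48 (4.35-fold lower, adjusted p = 0.000409). Without fossa 2, fossa 3 or whole body 2, 5 were lower, and 1 was higher without fossa 1, fossa 2 or whole body 3.

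Splicing genes moved in both directions. Of 47, 5 were higher and 14 lower, and 10 and 6 after quantile normalization. Prpf8, the core protein of the spliceosome, read 5.04, 4.87 and 5.04 against 3.10, 3.73 and 2.32, at least 3.00-fold higher (adjusted p = 0.00670). U2af1, which recognises the end of introns, read 8.19, 8.02 and 7.93 against 6.74, 5.93 and 7.27, 2.64-fold higher (adjusted p = 0.0240). Lsm3, of the ring that binds U6 RNA, read 8.92, 8.52 and 8.55 against 10.64, 10.54 and 10.36, 3.62-fold lower (adjusted p = 0.000199), and the splicing regulator Srsf3 was 2.60-fold lower. The groups did not overlap in any of the 4 genes, and the 4 were called under both scalings. Snrnp70 was at least 3.74-fold higher on its brightest probe set, but the other 3 of its 4 probe sets did not show that direction and its call held only without whole body 1. The call of U2af1 held only without whole body 2 or whole body 3. The higher count was 1 without fossa 1 or fossa 2, 2 without fossa 3 and 3 without whole body 3, and 9 were lower without fossa 3.

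Noncoding RNAs did not fall. Of 20 nuclear and imprinted long noncoding RNAs 2 were higher and 0 lower, and 6 and 0 after quantile normalization. With Neat1, the second was Snhg5, a host gene of small nucleolar RNAs, at 10.33, 9.42 and 9.23 against 8.47, 7.999 and 8.59 (2.47-fold, adjusted p = 0.0230). Miat read 10.05, 8.82 and 10.25 against 7.51, 6.61 and 6.81 without passing (adjusted p = 0.0869). Meg3, an imprinted RNA, read 13.70, 13.003 and 12.52 against 12.16, 11.95 and 12.25 and passed only after quantile normalization (adjusted p = 0.0544 and 0.0228). Both lay above whole body on all fossa arrays. The call of Snhg5 ended without whole body 1 or whole body 2, which left 1 of the 20. Of 19 genes for aminoacyl-tRNA synthetases 2 were higher and 1 lower, and 4 and 0 after quantile normalization. Aars read 6.99, 7.63 and 7.18 against 6.35, 6.32 and 6.20, 1.97-fold higher (adjusted p = 0.00861, in 1 of 2 probe sets), while the call of Sars, 1.76-fold higher, ended in each leave-out, and 1 was higher without fossa 1, fossa 2, whole body 1 or whole body 2.

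Glycolysis and hypoxia genes were called in both directions. Of 30, 5 were higher and 7 lower, and 7 and 2 after quantile normalization. Hexokinase 2 (Hk2), which traps glucose in the cell, read 5.52, 4.88 and 5.35 against 3.93, 4.002 and 4.14, 2.34-fold higher (adjusted p = 0.00313). Aldoa, aldolase A, read 10.999, 11.15 and 11.29 against 10.08, 9.90 and 10.14, 2.15-fold higher (adjusted p = 0.00471), and the hypoxia-induced gene Ddit4 read 7.50, 7.54 and 7.97 against 6.10, 6.01 and 6.43, 2.81-fold higher (adjusted p = 0.00414). In these 3 the groups were apart and replicates close. Vegfa was at least 1.22-fold higher, with whole body at background, and Pfkfb4 was the fifth. Bnip3, a mitophagy gene that HIF also induces, fell 2.98-fold under both scalings. Pdk1 was 2.06-fold lower as deposited and was not called after quantile normalization. Slc2a1, the glucose transporter GLUT1, read 11.57, 10.10 and 10.89 against 11.69, 11.72 and 11.90 (adjusted p = 0.152), low on fossa 2. The call of Pfkfb4 ended without fossa 3 or any 1 whole body array.

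Lipid synthesis genes were called in both directions. Of 26 cholesterol and fatty acid synthesis genes 4 were higher and 5 lower, and 5 and 4 after quantile normalization. Sc5d, a late cholesterol enzyme, read 5.57, 5.09 and 4.97 against 3.57, 3.53 and 3.55, 3.17-fold higher (adjusted p = 0.00784), with Sqle, Acaca and Fasn higher at 1.58-fold, 1.55-fold and 1.51-fold. The mevalonate pathway genes Mvd and Idi1 were lower, Mvd at 2.78, 3.27 and 3.03 against 4.97, 4.90 and 4.54 and Idi1 at 7.90, 8.09 and 7.51 against 9.44, 9.73 and 9.44 (3.26-fold, adjusted p = 0.00351). There were 2 higher genes without fossa 2, fossa 3 or whole body 2 and 3 lower without fossa 3, and the calls of Acaca and Fasn were among those that ended. Of 36 lysosome and autophagy genes 3 were higher and 5 lower, and 5 and 2 after quantile normalization. Prosaposin (Psap) was 3.71-fold higher at 7.49, 7.96 and 8.20 against 6.23, 5.74 and 6.01. The autophagosome genes Map1lc3b and Gabarapl2 were 3.44-fold and 3.98-fold lower, although for Map1lc3b 2 of 4 probe sets, and for Gabarapl2 1 of 2, did not show that direction. The starter kinase of autophagy, Ulk1, was at least 3.52-fold higher and lost its call without fossa 2, fossa 3, whole body 2 or whole body 3. Without whole body 2, 1 of the 36 was higher.

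Genes that respond within minutes to handling or stress did not move as a block. Of 38 immediate early and stress-induced genes 3 were higher and 5 lower, and 5 and 3 after quantile normalization. Fos read 7.77, 3.78 and 6.73 against 5.88, 4.197 and 6.66 (adjusted p = 0.779), with the groups fully overlapping and fossa 2 lowest. Egr3 was 3.18-fold higher and Gadd45b 2.32-fold, while Klf10, a TGF-beta-induced factor, read 4.14, 4.22 and 4.86 against 6.10, 6.53 and 6.005, 3.48-fold lower (adjusted p = 0.00785). The call of Egr3 ended in all 6 leave-outs and that of Gadd45b in 5. The higher count was 1 without fossa 2, fossa 3, whole body 1 or whole body 2, and the lower count 3 without fossa 1, fossa 2 or whole body 2 and 2 without fossa 3. Of 18 clock genes 0 were higher and 4 lower, and 0 and 2 after quantile normalization, among them Arntl, at background in fossa at 2.60, 2.51 and 2.53 against 3.32, 3.29 and 3.51.

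Among the lists, erythroid genes had the lowest median difference after liver genes. Of 21 erythroid genes 0 were higher and 16 lower as deposited, and 15 after quantile normalization, with a median difference of -3.02 and a list mean of 4.13, 4.46 and 4.49 in fossa against 7.58 to 7.64. Klf1, the master regulator of red cell genes, read 3.50, 3.27 and 3.17 against 9.09, 8.54 and 8.44, at least 41.2-fold lower (adjusted p = 1.22e-05). Hbb-bh1, an embryonic globin, read 2.73, 5.39 and 5.45 against 10.03, 10.64 and 10.38, at least 47.3-fold lower (adjusted p = 0.00208). Fossa 1 was at background for it, and fossa 2 and 3 were not. Of 20 neutrophil and mast cell genes 8 were lower under both scalings and 1 was higher after quantile normalization only. The list mean was 3.38, 3.28 and 3.02 against 5.27 to 5.31. S100a8 read 4.19, 3.08 and 4.33 against 11.53, 12.15 and 11.44, 229-fold lower (adjusted p = 0.00225), and the granule protease gene Ctsg was at least 32.8-fold lower.

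Macrophage genes gave fewer calls. Of 24, 0 were higher and 5 lower, and 3 after quantile normalization, and 4 were at background on all 6 arrays. The lysozyme genes Lyz1 and Lyz2 read 6.80, 7.91 and 6.47 against 11.39, 11.86 and 11.40, and 3.59, 4.87 and 3.24 against 7.11, 7.39 and 7.45 (adjusted p = 0.0213 and 0.0331). As near-identical copies they can share probe signal, so they are not separate evidence. Csf1r, the receptor for the macrophage growth factor, overlapped at 9.73, 10.47 and 9.49 against 10.08, 10.22 and 10.67 (adjusted p = 0.798), and its difference of -0.43 was 0.14 after quantile normalization. The lower count was 1 without fossa 1 or fossa 3, 2 without whole body 1 or whole body 2 and 3 without whole body 3, and the calls of both lysozyme genes held only without fossa 2. Of 18 lymphoid genes 14 were at background throughout.

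Heart genes fell, and skeletal muscle genes gave fewer calls. Of 20 heart genes 9 were lower and 0 higher, and 8 after quantile normalization, and Myl2 was at background on fossa 1 and 3, at 2.56 and 2.51, and just above on fossa 2, at 3.11, against 9.07, 8.77 and 9.42. Cardiac myosin Myh6 read 4.15, 3.91 and 3.52 against 8.13, 7.58 and 8.14, 17.1-fold lower (adjusted p = 5.5e-05). The skeletal muscle list had 5 of 34 lower as deposited, 2 after quantile normalization and 0 higher. Mylpf, a fast muscle light chain, still read 6.50, 8.54 and 7.51 against 10.42, 9.97 and 10.11, 6.29-fold lower (adjusted p = 0.0427, and 0.103 after quantile normalization), and Acta1 read 6.10, 8.13 and 8.10 against 9.65, 9.005 and 9.04 (adjusted p = 0.166). Fossa 2 was highest and fossa 1 lowest for both. The skeletal muscle count was 2 without fossa 1 or whole body 2 and 3 without fossa 3 or whole body 1, and the call of Mylpf held only without fossa 2. Of 20 lens and retina genes 0 were higher and 6 lower, and 2 and 5 after quantile normalization. Crygf read 2.60, 3.16 and 3.23 against 9.96, 10.42 and 10.60.

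Markers of epithelium, neurons and choroid plexus differed between the fossa arrays. The mean over 32 surface epithelium genes was 7.96, 4.57 and 7.43 in fossa against 6.57 to 6.75 in whole body, with 3 at background on all 6 arrays. Krt5, a keratin of basal epidermis, read 10.34, 5.36 and 10.45 against 6.44, 6.88 and 6.12, and its partner Krt14 8.88, 3.58 and 8.26 against 5.63, 5.93 and 5.55. So fossa 1 and 3 were well above whole body and fossa 2 below it (adjusted p = 0.285 and 0.559). Of the 32, 0 were higher and 3 lower as deposited, and 0 and 1 after quantile normalization. Among the 3 was Epcam, an adhesion gene of simple epithelia, at 3.81, 3.69 and 3.77 against 5.14, 5.16 and 5.10 (2.59-fold lower, adjusted p = 0.000772, in 1 of 2 probe sets). Without fossa 2, 6 of the 32 were called higher and 2 lower, and without whole body 2 1 was lower. Krt18, also of simple epithelia, was 5.72-fold lower as deposited and was not called after quantile normalization or without any 1 whole body array.

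Neuronal genes ran the other way among arrays. The mean over 37 was 4.58, 6.33 and 5.76 in fossa against 5.40 to 5.47. As deposited 0 were called, and after quantile normalization 1 was higher. Stmn2 read 5.92, 7.23 and 6.57 against 6.46, 6.40 and 6.06 (adjusted p = 0.878) and Tubb3 5.10, 7.50 and 5.67 against 6.30, 5.83 and 5.21 (adjusted p = 0.851). Fossa 2 was above whole body and fossa 1 below it in both genes. Without fossa 1, 2 of the 37 were called higher. Fossa 2, with the highest neuronal mean, also had the highest mean over bone, collagen enzyme and skeletal muscle genes, and the part of this in the results was not tested. Ttr, a gene of choroid plexus and liver, read 5.58, 4.24 and 15.06 in fossa against 14.88, 14.69 and 14.77, and Clic6, another choroid plexus gene, 2.63, 3.50 and 5.77 against 5.37, 4.70 and 5.74. Fossa 3 alone was at the whole body level for both. The mean over 13 choroid plexus genes was 3.63, 3.52 and 4.83 against 4.54 to 4.93, and 6 of the 13 were at background on all 6 arrays.

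Vessel and fat genes gave few calls, and gonad genes gave 4 of 15. Of 23 endothelial genes 0 were higher and 2 lower as deposited, and 3 and 2 after quantile normalization. The 2 lower genes were Lyve1, of lymphatic and liver vessels, at 3.65, 5.60 and 4.68 against 7.33, 8.74 and 8.12 (10.7-fold lower, adjusted p = 0.00674), and the VEGF receptor Flt1, at least 2.53-fold lower. The list mean was 3.63, 4.46 and 3.88 against 4.10 to 4.23. The call of Flt1 ended without any 1 of the fossa arrays or whole body 1, which left 1 of the 23, and 2 endothelial genes were higher without fossa 1. For Flt1 2 of 4 probe sets did not show the direction. Of 21 fat genes 2 were lower as deposited and 1 after quantile normalization. Plin2, the coat protein of lipid droplets, read 7.36, 7.37 and 6.81 against 8.71, 8.65 and 8.62 (2.79-fold lower, adjusted p = 0.00288). Without fossa 2, fossa 3 or any 1 whole body array, 1 fat gene was lower. Of 15 gonad and germ cell genes 4 were lower under both scalings, led by the steroid enzyme gene Cyp11a1, at least 3.31-fold lower, and 1 was lower without fossa 3.

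**Figure D4:**
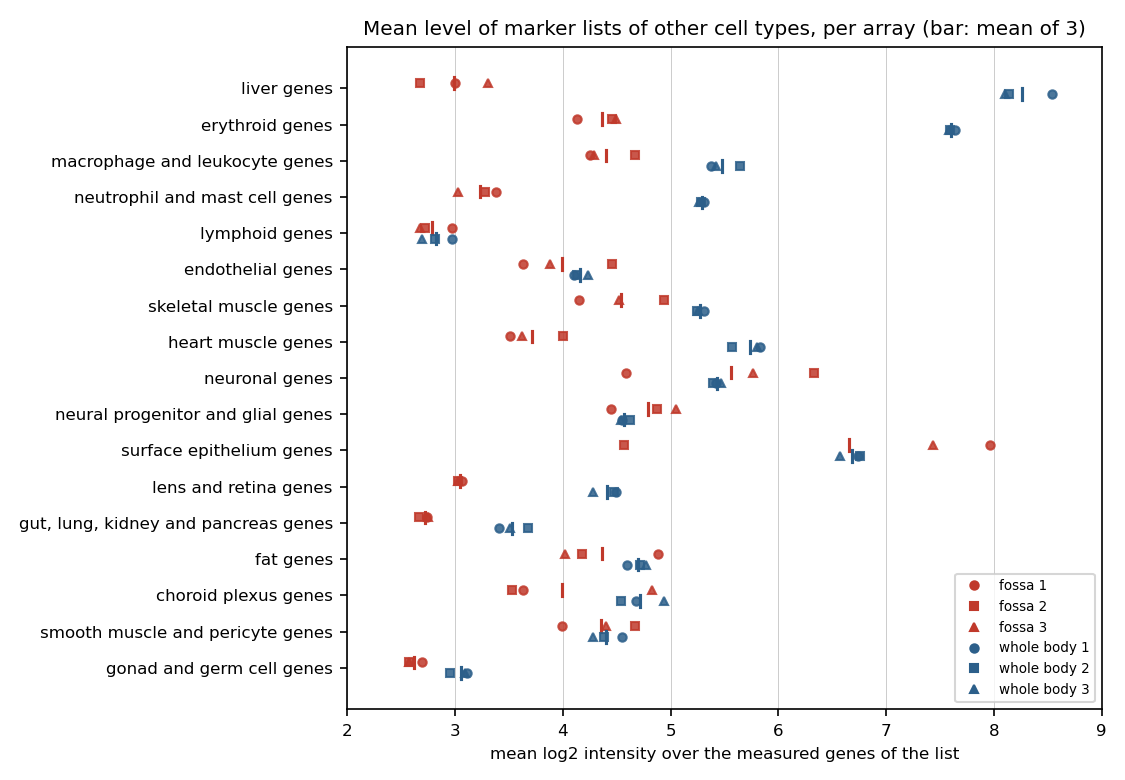
Mean log2 intensity over the measured genes of each marker list of other cell types, per array (red fossa, blue whole body; symbols mark the replicate, the vertical bar is the mean of 3). Liver, erythroid and neutrophil lists are far lower on all 3 fossa arrays; the surface epithelium and neuronal lists spread widely among the fossa arrays, with fossa 2 lowest in epithelium and highest in neurons.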

How the data were processed

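Expression was measured on 9 arrays of 45101 probe sets, of which 6 are compared here. The authors deposited linear intensity values in a series matrix. Their background correction, summarisation and scaling are not given in the sources used here, and the submitters' processing notes name limma without a version. Array files carry no read depth, and the small number of arrays limits the precision.

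Intensities were floored at 1 and taken to log2. Probe sets with 1 symbol in the platform annotation (34945, with 932 naming several genes and 9160 naming none) were reduced to 1 for each of 18193 genes, the one brightest on average over the 9 arrays. An array's background limit is the highest of 27 bacterial control probe sets, and a gene not above it on all 3 arrays of the dimmer group has only a bound, given as "at least". Groups were fitted with limma 3.58.1 in R 4.3.3 (lmFit and eBayes over 3 groups) with Benjamini-Hochberg adjustment at 0.05 over all genes, after tests on simulated data. Folds come from differences between group means of log2 values. The log2 values of the deposited data were also quantile normalized with the same probe sets, and the other alternatives were median centring, a common floor, a replicate block, other probe set and prior choices, and leaving out each array.

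Gene lists and members were chosen with earlier results of these data known. Named were the 12 largest differences in each direction called under both scalings, up to 4 called and 2 uncalled genes of each list, and 15 set genes. Runx2 and Spp1 were not analysed here. Further genes, among them Sfrp4, Mepe, Sost, Hoxa7, Pole, Aurkb, Etv4, Fgf18, Irs2 and Meox1, were named after their values were seen. A gene's other probe sets are mentioned where they differ in direction. Promoters are from RefSeq (GRCm38.p6).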

Additional observations from a re-analysis of the deposited data

Results flagged for a closer look

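The condyle arrays lie outside the comparison of fossa with whole body. Of 306 named genes, 106 differed between condyle and fossa at an adjusted p under 0.05 in limma, 94 with the condyle higher and 12 with it lower. Over all genes 3440 did, 3053 with the condyle higher. Of the 306, 266 were called between fossa and whole body, and Sox9 and Pax9 were not. Both differences use the same fossa arrays. Those of at least 2 on the log2 scale, a size set after the values were seen, are given here as condyle minus fossa. Transcription factor genes were Pax9 at 3.80, Lhx8 at 3.29, Sox9 at 2.32 and Klf10 at 2.01. Signalling genes were Axin1 at 2.58, Igfbp2 at 2.27, Dusp6 at 2.16 and the retinoic acid receptor gene Rarg at 2.05. The others were Clic6 at 4.70, the hyaluronan synthase gene Has2 at 2.69, the adhesion gene Zyx at 2.58 and the mevalonate pathway gene Mvd at 2.24. These condyle minus fossa values and counts are as deposited and were not run after quantile normalization. The 95th percentile of the signal was 9.03 to 9.13 on the condyle arrays and 8.38 to 8.46 on the fossa arrays. The part of this in the differences was not tested. Groups of 3 arrays were not tested for outlying samples.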

How the results depend on the processing

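Counts moved with the scaling, while no called named gene changed direction under any alternative run. Against 726 higher and 2833 lower as deposited, quantile normalization gave 1460 and 1641, a common floor at the highest background limit 327 and 1566, and quantile normalization without fossa 1 1387 and 1482, and median centring gave 1646 higher. Leaving out 1 array gave 468 to 683 higher and 1868 to 2535 lower. The share of called genes that were higher, 20.4%, was 47.1% after quantile normalization, 44.7% after median centring, 48.3% after quantile normalization without fossa 1, 17.3% with the common floor, 18.5% with the mean of probe sets, 22.8% with an intensity trend and 18.1% to 22.3% without 1 array. The cause was not tested. Differences of genes that were not called changed sign for Csf1r (0.14 after quantile normalization, 0.22 with fossa 1 also left out), Sox9 (0.038 in the latter), and, when 1 array was left out, for Prrx1 (-0.13 without fossa 2 and -0.025 without whole body 1, to 0.27), Stmn2 (-0.060 without fossa 2, to 0.60), Tubb3 (-0.39 without fossa 2, to 0.81) and Ihh (-0.00475 without whole body 3, to 0.032). Same-numbered fossa and whole body arrays deviated together at 0.084, -0.045 and 0.057, so the numbers were not taken to pair samples, and not every array correlated best with its own number. With the replicate block 542 genes were higher and 2237 lower, with 19.5% higher. A fit of the 6 fossa and whole body arrays alone, without the condyle, gave 537 higher and 2254 lower, with 19.2% higher. In that fit 51 of the called named genes were no longer called. Of 266 called named genes 180 were called whichever array was left out, 227 after quantile normalization and 171 in all of these. Genes at background in both groups, 4817 of 18193, limit what low signal can show.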
